A study of Mus musculus with 8 samples.

Results

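The 10 genes described here belong to bone morphogenetic protein (BMP) signalling and were followed in prospermatogonia, the germ cells a mouse testis holds before birth, collected at E17.5. They were taken by symbol and by what they encode. The ligand genes were Bmp4 and Bmp7, the receptor genes Bmpr1a and Bmpr2, the signal-carrying SMAD genes Smad1, Smad5 and Smad9, and the target genes Id1, Id2 and Id3. All 10 of 10 were found among the 55401 genes of the count table through GENCODE M21 and all were among the 24005 genes tested. The comparison set 4 libraries labelled KO (genotype Tet1-/-) against 4 labelled WT (Tet1+/+), every one in batch 1 per the labels. Neither the Tet1 allele nor the way the cells were isolated is given in the sources used here. Nothing states which libraries came from separate animals or litters. The p-values therefore set each difference against the spread between these libraries, which may not be the spread between animals. TET1 is an enzyme that oxidises methylated cytosine, and the series is about what the protein does apart from that catalysis to chromatin and DNA methylation in male germ cells.

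BMP ligands are secreted dimers that bring a type I receptor such as BMPR1A together with a type II receptor such as BMPR2. The activated receptors phosphorylate SMAD1, SMAD5 and SMAD9, which enter the nucleus with SMAD4 and switch on targets, among them the ID genes and the inhibitory SMADs that damp the same signal. ID proteins have a helix-loop-helix but no DNA-binding region, and they hold E proteins away from DNA. In the early mouse embryo, BMP4 from tissue next to the epiblast is needed for primordial germ cells to form.

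In the KO-labelled libraries, most of the 10 members were higher, but receptor and target genes outside the 10 moved both ways. Bmpr1a, Bmpr2, Smad1, Smad5, Id1 and Id3 rose, Id3 the most at 10.1-fold. Bmp7 rose by a margin that several settings removed. Smad9 was the single member that fell, to 0.309 of its level in the WT-labelled libraries. Bmp4 and Id2 did not pass. Of the 10 members, 7 were higher and 1 lower at an edgeR adjusted p (Benjamini-Hochberg) under 0.05, where 25.3% of all tested genes were higher and 28.2% lower, 53.5% in either direction. Of the 7, Bmp7, Bmpr1a, Bmpr2, Smad1 and Smad5 are in the abundant class described below, of which 46.0% of genes were higher. The groups did not overlap for 8 members, and for 48.4% of all tested genes. Id3, among the members higher and those without overlap, entered the test through the KO-labelled libraries, where it is high. The median log2 difference of the members, Id3 included, was 0.66, against -0.05 for all tested genes and 0.26 for the abundant class. The medians were not tested against each other.

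The labels and the libraries were examined first. Tet1 itself was higher in the KO-labelled libraries, at 124 ± 33.4 CPM against 31.9 ± 1.95 CPM in the WT-labelled ones (SD, n = 4 each), so the count of the targeted gene went against the labels (log2 difference 1.97, SE 0.18, edgeR adjusted p = 3.03e-06). A count per gene does not show which exons were read, and every direction here refers to the labels as deposited. Totals ran from 13820764 to 20115250 counts per library. The germ cell list of 10 markers summed to between 2265 and 2785 CPM (counts scaled to library size with TMM factors) in KO-labelled libraries and between 2388 and 2767 CPM in WT-labelled ones, with none of them at 0 in any library. The sum is carried by the most abundant markers such as Piwil2 and Tdrd1, and single markers moved both ways, with 4 higher, 3 lower and 3 not passing. Picked out after their values were seen, Dppa3 was 16.5-fold, Nanos3 4.30-fold and Nanos2 3.17-fold higher, and Mael was at 0.457 of its WT-labelled level. KO 4 stood apart: its 6 fetal Leydig cell markers summed to 1803 CPM, against 14.9 to 22.7 CPM in the other KO-labelled libraries and 16.5 to 32.5 CPM in the WT-labelled ones, with Cyp17a1 at 862 CPM and Cyp11a1 at 369 CPM. Member results are therefore given with and without KO 4.

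Promoter sequences from RefSeq (GRCm38.p6) were matched for 8 of the 10 members, all but Bmp7 and Id1. In the 250 bases before each RefSeq start, the members' 10 windows held 11 to 36 CpG dinucleotides, the sites that carry DNA methylation, against a median of 6 (quartiles 2 and 16) over 32851 windows. RefSeq starts can differ from the GENCODE bounds given below. The windows of Bmpr1a, Bmpr2, Id2 and Id3 lie inside those bounds. The promoters of Smad9, Smad5 and Bmp4 are shown because they belong to a SMAD gene that fell, a SMAD gene that rose and a ligand gene that did not pass. CpG dinucleotides are in capitals, and each run reads 5′ to 3′ on the gene's strand.

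Smad9, chr3:54755332-54755581, plus strand: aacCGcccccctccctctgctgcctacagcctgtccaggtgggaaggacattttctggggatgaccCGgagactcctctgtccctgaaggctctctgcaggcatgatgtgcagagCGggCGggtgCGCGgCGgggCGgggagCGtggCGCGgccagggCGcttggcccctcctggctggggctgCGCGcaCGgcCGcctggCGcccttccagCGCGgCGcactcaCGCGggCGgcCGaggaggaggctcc

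Smad5, chr13:56702760-56703009, plus strand: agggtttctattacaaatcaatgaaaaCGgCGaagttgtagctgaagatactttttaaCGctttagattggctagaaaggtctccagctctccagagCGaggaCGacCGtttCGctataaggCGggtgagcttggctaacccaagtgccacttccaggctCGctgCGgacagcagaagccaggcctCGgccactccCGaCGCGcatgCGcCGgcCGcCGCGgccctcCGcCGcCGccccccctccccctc

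Bmp4, chr14:46390670-46390919, minus strand: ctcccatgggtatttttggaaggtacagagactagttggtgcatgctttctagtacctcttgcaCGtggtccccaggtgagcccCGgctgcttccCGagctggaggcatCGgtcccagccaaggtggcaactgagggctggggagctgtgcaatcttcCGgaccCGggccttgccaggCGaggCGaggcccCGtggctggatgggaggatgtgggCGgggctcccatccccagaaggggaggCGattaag

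The Smad9 window held 24 CpG and the first of the 3 Smad5 windows 22, so the SMAD genes that moved in opposite directions had like CpG counts there. Bmp4 held 11, the lowest of the members, and Bmpr1a 36, the highest. The GC-rich motif bound by BMP-activated SMADs, GGCGCC, which reads alike on both strands, was in 1 window each of Bmpr1a, Bmpr2, Smad5, Smad9 and Id2, where 9.59% of all windows held it. The motif itself holds a CpG, and the members' windows had more CpG than the median window. Windows of like CpG content were not compared, so enrichment of the motif was not tested. The SMAD palindrome GTCTAGAC was in 0 of the members' windows and in 0.167% of all.

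Among the ligands, Bmp7, which mouse kidney and eye development need, was the more abundant per length. Bmp7 (ENSMUSG00000008999.7, chromosome 2, 172868012 to 172940321, minus strand) had 24.1, 35.0, 23.8 and 27.4 CPM in KO 1 to KO 4, against 20.9, 20.8, 21.7 and 21.2 CPM in WT 1 to WT 4. The groups did not overlap, but KO 3 and KO 1 lay close above the WT-labelled range and KO 2 well above it. The log2 difference was 0.38 (SE 0.14, edgeR adjusted p = 0.0316). The call was lost without KO 2 (log2 difference 0.29, adjusted p = 0.0817), without WT 1 (0.38, adjusted p = 0.0683) and under other scalings of the libraries. Bmp4 (ENSMUSG00000021835.15, chromosome 14, 46383520 to 46390669, minus strand), the ligand best known from germ cell formation, had 5.30, 5.62, 6.20 and 6.36 CPM in KO 1 to KO 4, against 5.94, 6.10, 5.60 and 5.63 CPM in WT 1 to WT 4. The ranges overlapped, and the log2 difference of 0.01 had a 95% interval from -0.36 to 0.39 (edgeR adjusted p = 0.959).

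Both receptor genes were higher in every KO-labelled library than in any WT-labelled one. Bmpr1a (ENSMUSG00000021796.15, chromosome 14, 34410734 to 34503341, minus strand) encodes a type I receptor, the kinase that phosphorylates the SMADs. It had 81.6, 80.6, 61.2 and 76.7 CPM in KO 1 to KO 4, against 45.5, 51.9, 44.5 and 43.7 CPM in WT 1 to WT 4. KO 3 was the lowest of the KO-labelled libraries and still above WT 2, the highest of the others. The log2 difference was 0.69 (SE 0.12, edgeR adjusted p = 0.000296), a fold of 1.62. On the opposite strand, Gm17110 shares 290 of 6351 exon bases with Bmpr1a, and it held 282 counts in the KO-labelled and 262 in the WT-labelled libraries. Bmpr2 (ENSMUSG00000067336.6, chromosome 1, 59763400 to 59879014, plus strand) encodes the type II receptor that activates type I receptors. Its values were 134, 113, 130.2 and 155 CPM in KO 1 to KO 4, against 84.4, 87.8, 80.4 and 87.6 CPM in WT 1 to WT 4. The spread was narrow in the WT-labelled libraries, with an SD of 3.46 CPM, and wider in the KO-labelled ones, with an SD of 17.0 CPM (n = 4 each). The log2 difference of Bmpr2 was 0.65 (SE 0.11, edgeR adjusted p = 0.000276), a fold of 1.56. Neither receptor gene passed a test against a fold change of 1.5.

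The 3 SMAD genes changed unequally. Smad5 (ENSMUSG00000021540.16, chromosome 13, 56703010 to 56742377, plus strand) had 66.7, 74.9, 61.7 and 55.0 CPM in KO 1 to KO 4, against 28.3, 21.7, 28.9 and 37.7 CPM in WT 1 to WT 4. Every KO-labelled library lay above every WT-labelled one, and WT 2 was the lowest of all. The log2 difference was 1.15 (SE 0.16, edgeR adjusted p = 6.34e-05). Smad1 (ENSMUSG00000031681.16, chromosome 8, 79338395 to 79399518, minus strand) had 24.5, 23.0, 16.8 and 20.9 CPM in KO 1 to KO 4, against 14.0, 16.2, 13.5 and 12.2 CPM in WT 1 to WT 4. Here KO 3 was only just above WT 2, and the log2 difference was 0.61 (SE 0.15, edgeR adjusted p = 0.00469). Smad9 (ENSMUSG00000027796.2, chromosome 3, 54755582 to 54801257, plus strand) encodes a SMAD known as a weaker activator than SMAD1 and SMAD5. It had 3.25, 3.12, 5.46 and 3.79 CPM in KO 1 to KO 4, against 11.3, 17.3, 13.2 and 8.48 CPM in WT 1 to WT 4. No library of one group entered the range of the other, and the log2 difference was -1.69 (SE 0.25, edgeR adjusted p = 0.000112).

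A share within 1 library does not depend on how libraries are scaled. Of the summed counts per kilobase of Smad1, Smad5 and Smad9, Smad9 held 5.79% ± 2.01 in the KO-labelled libraries and 27.5% ± 7.69 in the WT-labelled ones (SD, n = 4 each). Smad5 held 67.7% ± 2.55 in the KO-labelled libraries and 46.2% ± 10.4 in the WT-labelled ones (SD, n = 4 each). The share of Smad1 was nearly the same, at 26.5% ± 3.24 and 26.3% ± 2.95 (KO-labelled and WT-labelled, SD, n = 4 each). The shares of Smad9 and of Smad5 did not overlap between the groups, and those of Smad1 did.

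The ID genes were read with few counts, and Id3 had the largest difference of the 10 members. Id3 (ENSMUSG00000007872.3, chromosome 4, 136143497 to 136145755, plus strand) had 82, 100, 34 and 80 counts in KO 1 to KO 4, against 10, 12, 4 and 7 counts in WT 1 to WT 4. That is 5.43, 5.67, 2.51 and 5.14 CPM in KO 1 to KO 4, against 0.512, 0.697, 0.195 and 0.453 CPM in WT 1 to WT 4. KO 3 was the lowest KO-labelled library and still more than any WT-labelled one. Id3 entered the test through the KO-labelled libraries, since 4 of them and 1 WT-labelled library reached the filter's 0.616 CPM, so a gene with its WT-labelled level in all libraries would not have been tested. The log2 difference was 3.34 (SE 0.39, edgeR adjusted p = 1.99e-05), and the depth-scaled ratio of the summed counts, 296 against 33, was 10.6 with a 95% exact counting interval from 7.35 to 15.6. Intervals on counts cover counting error only.

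Id1 (ENSMUSG00000042745.9, chromosome 2, 152736251 to 152737410, plus strand), a classical direct BMP target, had 46, 48, 40 and 44 counts in KO 1 to KO 4, against 17, 20, 37 and 17 counts in WT 1 to WT 4. In scaled units the values were 3.05, 2.72, 2.95 and 2.83 CPM in KO 1 to KO 4, against 0.871, 1.16, 1.80 and 1.10 CPM in WT 1 to WT 4. The KO-labelled libraries were close together and all above WT 3, the highest of the WT-labelled ones. The log2 difference was 1.22 (SE 0.29, edgeR adjusted p = 0.00346), and the ratio of summed counts was 2.30 (95% exact counting interval 1.78 to 3.00). Id2 (ENSMUSG00000020644.9, chromosome 12, 25093799 to 25097140, minus strand) had 40, 6, 13 and 38 counts in KO 1 to KO 4, against 17, 31, 16 and 8 counts in WT 1 to WT 4. The KO-labelled libraries spread from 0.340 CPM in KO 2 to 2.65 CPM in KO 1 and covered the whole WT-labelled range. Its log2 difference of 0.68 had a 95% interval from -0.53 to 1.88 (edgeR adjusted p = 0.324), which takes in both no difference and the difference of Id1.

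Within the ID family, Id3 held a larger share in the KO-labelled libraries. Id3 held 44.7% ± 9.71 of the family's counts per kilobase in the KO-labelled libraries and 15.5% ± 6.80 in the WT-labelled ones (SD, n = 4 each). Id1 held 44.4% ± 9.56 in the KO-labelled libraries and 61.6% ± 14.0 in the WT-labelled ones (SD, n = 4 each). The lowest Id3 share in a KO-labelled library was 32.3% in KO 3, above the highest in a WT-labelled one, 20.5% in WT 1. The shares of Id1 overlapped between the groups, as did those of Id2.

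**Figure D1:**
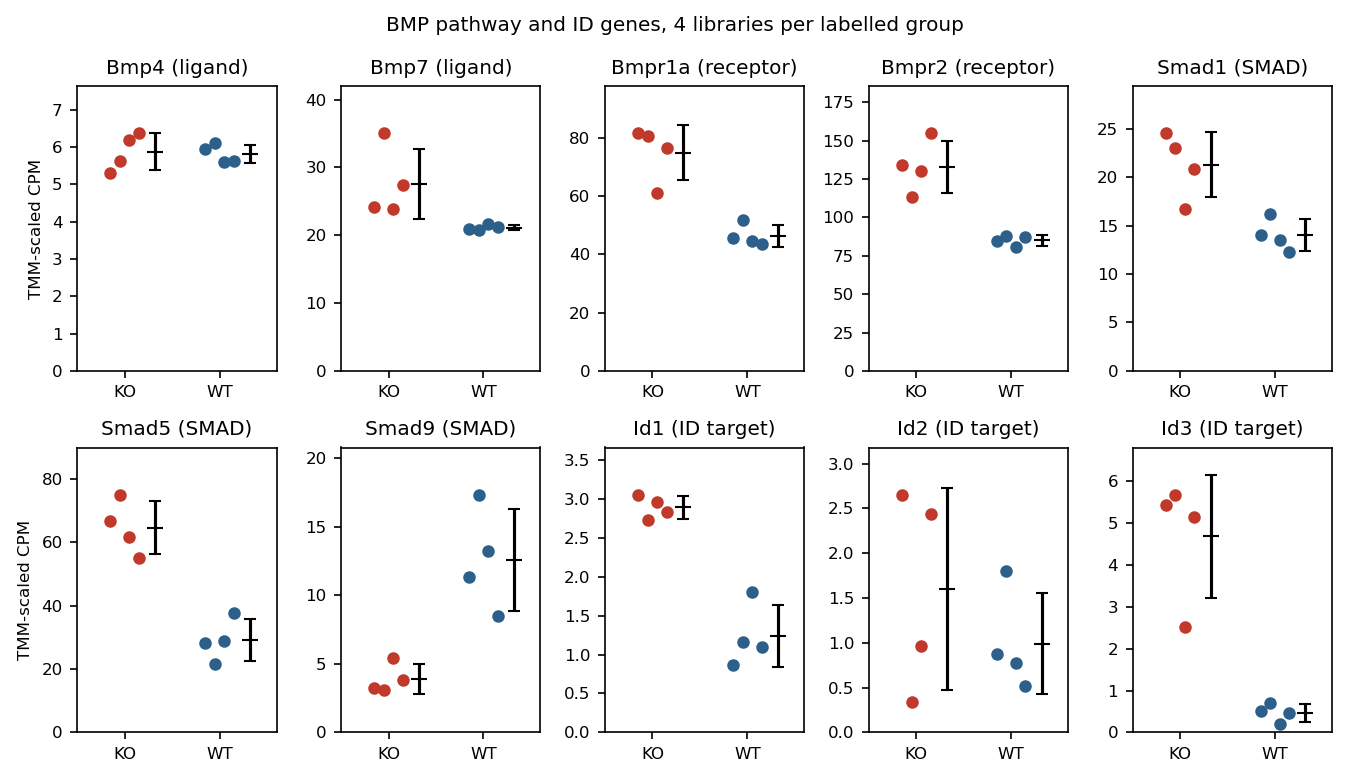
TMM-scaled CPM of the 10 members in each library (points, in the order 1 to 4) with the mean and SD beside them (n = 4 per labelled group), on axes that start at 0. Smad9 lies lower in the KO-labelled libraries, Bmp4 and Id2 overlap between groups, and the other 7 genes lie higher without overlap.

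**Figure D2:**
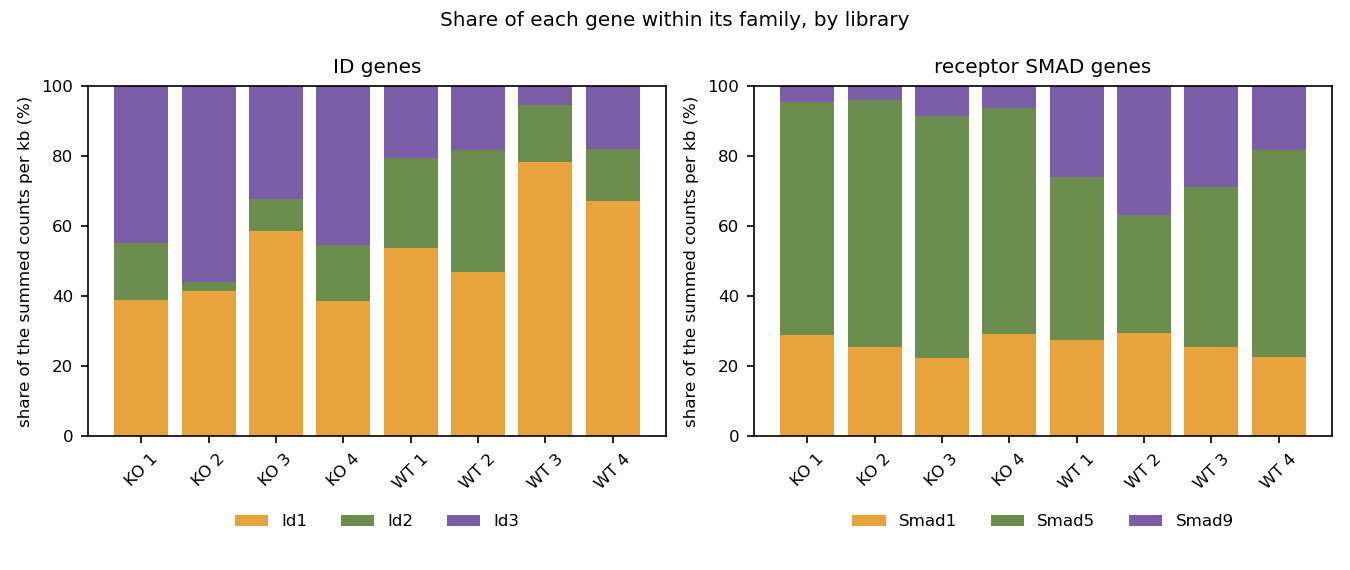
Share of each gene in the summed counts per kilobase of the ID genes (left) and of Smad1, Smad5 and Smad9 (right), in percent, 1 bar per library. Id3 takes 32.3% to 56.0% in KO-labelled libraries and 5.49% to 20.5% in WT-labelled ones, and Smad9 takes 4.05% to 8.47% in KO-labelled libraries and 18.3% to 36.9% in WT-labelled ones.

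Per length, the order of levels differed between the groups. In CPM per kilobase of exon, in the KO-labelled libraries, Bmpr1a was highest at 11.8 ± 1.49, followed by Smad5 at 8.71 ± 1.13, Bmpr2 at 7.40 ± 0.948 and Bmp7 at 6.86 ± 1.29 (SD, n = 4), each overlapping the next over the libraries. Smad1 at 3.40 ± 0.539, Id3 at 2.62 ± 0.820, Bmp4 at 2.61 ± 0.221 and Id1 at 2.49 ± 0.122 lay below all of these. Smad1 and Id1 did not overlap, while every other pair of these 4 did. Smad9 at 0.727 ± 0.201 and Id2 at 0.655 ± 0.462 were lowest and overlapped. In the WT-labelled libraries, Bmpr1a again led at 7.31 ± 0.587, followed by Bmp7 at 5.26 ± 0.102, Bmpr2 at 4.73 ± 0.192 and Smad5 at 3.93 ± 0.885, of which only Bmpr2 and Smad5 overlapped. There, Bmp4 at 2.59 ± 0.108, Smad9 at 2.34 ± 0.691 and Smad1 at 2.23 ± 0.264 did not differ beyond their spread, and Id1 at 1.06 ± 0.344, Id2 at 0.407 ± 0.229 and Id3 at 0.259 ± 0.116 came last, with Id2 and Id3 overlapping. With the longest transcript as the length, Bmpr2 was at 10.3 CPM per kilobase in the KO-labelled libraries, above Smad5, and Smad1 at 5.64.

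Among all genes, direction differed with abundance. Of 8364 tested genes averaging at least 4 on the log2 CPM scale, 46.0% were higher and 17.7% lower in the KO-labelled libraries, with a median log2 difference of 0.26. Bmpr1a, Bmpr2, Smad1, Smad5 and Bmp7 are in that class, and all 5 were higher. Of 9882 genes under 2, 7.65% were higher and 34.5% lower, and the median was -0.54. The 3 ID genes are in that class, and 2 of them, Id1 and Id3, were higher. Id3 was tested through the KO-labelled libraries, where it is high, so its call cannot be set against that share. Smad9 and Bmp4 lie between, where 25.8% of 5759 genes were higher and 32.6% lower.

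**Figure D3:**
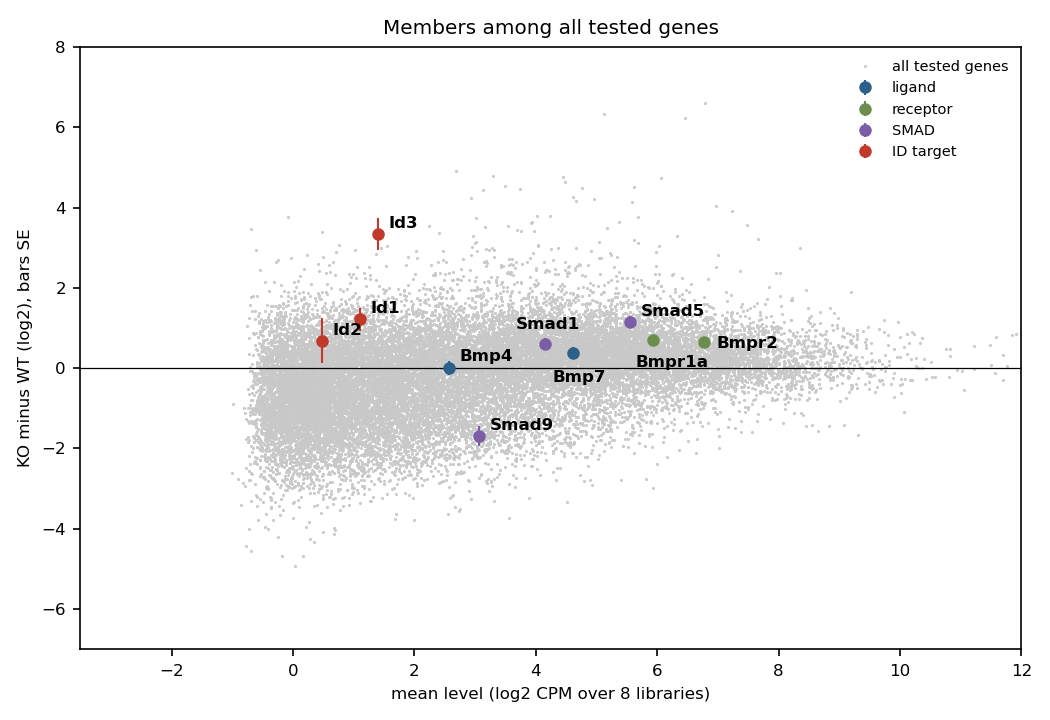
Log2 difference (KO minus WT, bars SE) against mean level (log2 CPM) for the 10 members, coloured by role, over all 24005 tested genes in grey. Id3 at 3.34 lies above most genes of its level, Smad9 at -1.69 lies low among its own, and the receptors lie within the grey cloud.

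Without KO 4, every member kept its side of the threshold. The log2 difference was then 0.42 for Bmp7, 0.71 for Bmpr1a, 0.59 for Bmpr2, 0.64 for Smad1, 1.24 for Smad5, -1.66 for Smad9, 1.25 for Id1 and 3.32 for Id3, with edgeR adjusted p from 8.07e-05 to 0.0462. Markers of other cell types were read in both groups. The 10 Sertoli cell markers summed to 44.9 to 98.2 CPM in KO-labelled and 51.7 to 66.1 CPM in WT-labelled libraries, and the 10 stromal and peritubular markers to 137 to 189 and 128 to 192 CPM. The Sertoli sum is carried by Clu, and of 9 tested Sertoli markers 4 were higher, 1 was lower and 4 did not pass. Chosen after their values were seen, the 4 were Wt1 at 2.19-fold, Amh at 2.29-fold, Aard at 2.50-fold and Cst9 at 3.39-fold, each without overlap between groups. The 1 lower was Dhh, at 0.562 of its WT-labelled level and also without overlap. Clu, at 0.826 of that level, overlapped and did not pass. Of the 10 stromal and peritubular markers, 2 were higher, 1 lower and 7 did not pass, and of 7 tested endothelial markers 1, Pecam1, was higher and 6 were lower. All 5 tested fetal Leydig markers were called higher although the groups overlapped, and for each of them KO 4 alone lay far above the other libraries. Of 4 tested macrophage markers 3 were lower and 1 did not pass, and of 4 erythroid ones 1 was higher, 1 lower and 2 did not pass. The 8 endothelial markers did not overlap, at 71.6 to 82.9 against 86.5 to 100.3 CPM, the 6 macrophage markers ran from 6.47 to 11.7 against 11.3 to 14.6 CPM, and the 6 erythroid markers from 12.8 to 21.4 against 18.2 to 23.0 CPM (KO-labelled against WT-labelled). No marker was at 0 in all libraries of either group, though Insl3, Fshr, Adgre1 and Lyz2 were at 0 in at least 1. ID genes are also strong in endothelial and stromal cells, and the part of any other cell type in the member differences was not tested. In bulk libraries, fewer cells of a type and less RNA per cell cannot be told apart.

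The rest of the pathway was described from 65 genes in 6 lists, of which 60 were tested. Directions differed between the lists, with 17 higher, 26 lower and 17 not passing. Among all tested genes, 25.3% were higher and 28.2% lower. Inside the cell, 10 of 14 regulators were higher, 1 was lower and 3 did not pass, and the median log2 difference was 0.66. Of the 14, 12 average at least 4 on the log2 CPM scale, a class in which 46.0% of all tested genes were higher, with a median of 0.26. The inhibitory SMAD genes led. Smad6 had 19.1, 18.6, 11.5 and 16.7 CPM in KO 1 to KO 4, against 1.33, 2.38, 2.34 and 2.59 CPM in WT 1 to WT 4. Its log2 difference was 2.94 (SE 0.24, edgeR adjusted p = 1.46e-06), and every KO-labelled library was above every WT-labelled one. Smad7 averaged 52.2 ± 10.3 CPM in the KO-labelled and 18.2 ± 1.88 CPM in the WT-labelled libraries (SD, n = 4 each), a log2 difference of 1.52. Ski, a co-repressor that binds SMADs, differed by 1.04. Zfp423, a zinc finger cofactor of BMP-activated SMADs, was the 1 that fell, by 1.01 on the log2 scale, and without KO 4 the count of those lower was 2. Smad4, the partner shared by all SMADs, had a log2 difference of 0.13 and did not pass (edgeR adjusted p = 0.368).

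Outside the cell, the calls among further ligand, antagonist and modulator genes were all lower, unlike that of Bmp7, and many of them had low counts. Of the 10 further ligand genes tested, 9 were lower, 0 were higher and 1 did not pass, and their median log2 difference was -1.71. The low-count filter asks for 0.616 CPM in 4 libraries, and 6 of these 10 met it in all 4 WT-labelled libraries but not in all 4 KO-labelled ones. With their KO-labelled level in every library, these 6 would not have been tested, so neither the count nor the median measures the list. Bmp2 averaged 3.28 ± 1.42 CPM in the KO-labelled and 10.3 ± 2.58 CPM in the WT-labelled libraries (SD, n = 4 each), a log2 difference of -1.65. Gdf7 (-2.61) and Bmp10 (-2.14), both under 4 CPM in every library and both among the 6, also fell. Of 15 extracellular antagonists and modulators tested, 10 were lower, 0 were higher and 5 did not pass, and the median was -0.91. Of these 15, 5 met the filter in all 4 libraries of the WT-labelled group only, among them Nog and Cer1, and the same limit holds. Noggin, encoded by Nog, binds BMPs and blocks them, and its gene had 0.530, 0.113, 0.590 and 1.03 CPM in KO 1 to KO 4, against 3.84, 5.05, 2.73 and 5.18 CPM in WT 1 to WT 4. The log2 difference of Nog was -2.89 (SE 0.44, edgeR adjusted p = 0.000148). Cer1 fell by 2.99 and Bmper by 2.34. Of these 19 lower genes, 13 averaged under 2 on the log2 CPM scale, as did 8 of the 10 tested ligands and 7 of the 15 tested antagonists and modulators. In that class 34.5% of all tested genes were lower, which is a share of tested genes and not of lower ones. Genes tested through the WT-labelled libraries, where they are high, cannot be set against that share. The lists were not tested against other genes.

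Other receptors moved both ways. Of 9 tested, 2 were higher, 4 lower and 3 did not pass, where 25.3% of all tested genes were higher and 28.2% lower. The type I receptor gene Bmpr1b averaged 8.32 ± 1.28 CPM in KO-labelled and 14.4 ± 1.17 CPM in WT-labelled libraries (SD, n = 4 each), a log2 difference of -0.79, opposite in sign to Bmpr1a. The co-receptor gene Rgma (-0.81) and the type I receptor gene Acvrl1 (-0.91) also fell. Acvr2b rose by 0.47 and Acvr1 by 0.51, but the groups overlapped for Acvr1. The call on Acvr1 (edgeR adjusted p = 0.0481) was lost without KO 1, KO 4, WT 1, WT 3 or WT 4 (0.0892 to 0.107). It was also lost with total-count scaling (0.223) and with the filter of 1 CPM in 4 libraries (0.0674). With upper-quartile or ribosomal protein gene scaling 0 receptors were higher.

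Of 9 further BMP target genes tested, 2 were higher, 2 lower and 5 did not pass, near the shares of all tested genes, 25.3% higher and 28.2% lower. Id4, the fourth ID gene, had 15.3, 24.1, 13.5 and 14.6 CPM in KO 1 to KO 4, against 5.89, 10.2, 5.01 and 6.15 CPM in WT 1 to WT 4. Its log2 difference was 1.31 (SE 0.24, edgeR adjusted p = 0.000620), with no overlap between groups. Msx1 rose by 1.45 while its paralogue Msx2 fell by 1.08 and Gata3 by 2.71, and without WT 2 the count higher was 4. Msx1 met the filter in all 4 KO-labelled libraries but 1 WT-labelled one, and Gata3 in all 4 WT-labelled libraries but 0 KO-labelled ones, so each was tested through the group where it is high. The genes of the E proteins that ID proteins bind were higher, 3 of 3, all in the abundant class in which 46.0% of genes were higher. Tcf12 averaged 153 ± 8.48 CPM in KO-labelled and 81.2 ± 4.84 CPM in WT-labelled libraries (SD, n = 4 each), a log2 difference of 0.92. Tcf3 differed by 0.88 and Tcf4 by 0.48, and the call on Tcf4 was lost with upper-quartile (edgeR adjusted p = 0.0609) and ribosomal protein gene scaling (0.0828).

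**Figure D4:**
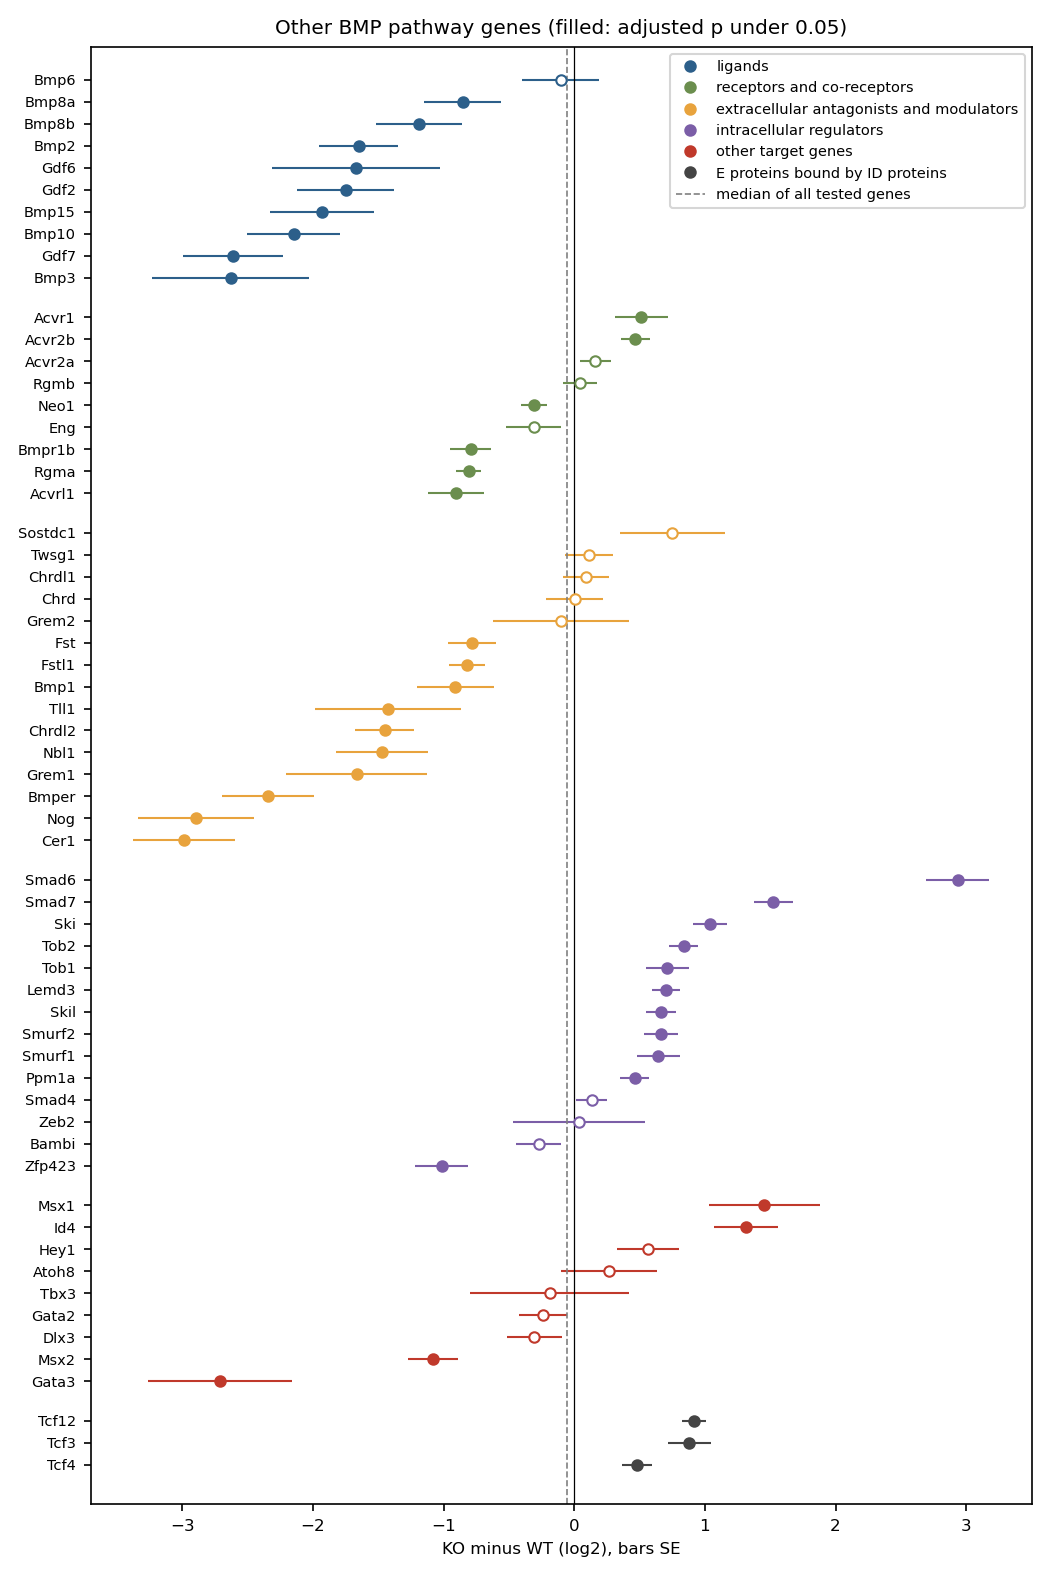
Log2 difference (KO minus WT, bars SE) of the 60 tested pathway genes outside the members, grouped by list and sorted within it, with filled points for edgeR adjusted p under 0.05 and a dashed line at the median of all tested genes. Intracellular regulators lie mostly right of 0, from Smad6 at 2.94. Ligands and extracellular antagonists and modulators lie mostly left, down to Cer1 at -2.99.

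Scaling shifted the median of all genes. Upper-quartile scaling moved the median of all tested genes by -0.24 and gave 31.2% of calls as higher, against 47.3% with TMM. Ribosomal protein gene scaling moved it by -0.18 and total counts by -0.18, with 34.1% and 35.3% of calls higher. Under these 3 scalings 6, 5 and 6 members were higher and 1 was lower. Of all 24005 tested genes, 4033, 3952 and 4478 were then higher and 8882, 7640 and 8201 lower. Smad5, Id1, Id3 and Smad9 passed in the same direction in each of 20 alternatives.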

How the data were processed

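RNA sequencing counts were measured in 8 libraries of E17.5 prospermatogonia, 4 KO and 4 WT. Per the labels' protocols, ribosomal RNA-depleted libraries with UMIs were made from TRIzol-extracted, DNase-treated RNA of frozen pellets. The deposited values are raw counts per gene, not normalized by the authors. Per the submitters' processing notes, the tools included featureCounts 1.5.0 and STAR, as well as Trim Galore, DESeq2 and edgeR, with the build mm10. The sources used here do not state strand setting or UMI collapsing, so opposite-strand reads cannot be told apart (4.57% of the Bmpr1a exons and 3.96% of the Bmp4 exons overlap another gene on the opposite strand). Symbols and coordinates came from GENCODE M21, of the same assembly.

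Differences are KO minus WT (log2) from the quasi-likelihood test of edgeR 4.0.16 in R 4.3.3, with filterByExpr, TMM and genotype as the only term, Benjamini-Hochberg adjusted over 24005 genes at 0.05. Levels are TMM-scaled CPM, and per kilobase values use the union of exons. A count of 0 allows up to 3 counts, 0.146 to 0.221 CPM. The fit was also run on simulated counts with few changed genes, balanced in direction. Since 53.5% of tested genes were called here, that run does not test the scaling of these data. Alternatives were DESeq2 1.42.0, limma 3.58.1 with library weights, other scalings, filters and dispersion, a test against a fold of 1.5, thinning, a replicate block and leaving out each library. The genes named outside the members were, in each list, up to 3 passing genes with the lowest p and those passing in a less common direction; Smad4 was added after its value was seen. Members and lists were chosen with earlier results of these data known.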

Additional observations from a re-analysis of the deposited data

Results flagged for a closer look

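Of 92 sets of 4 values examined, 10 held a library far from the other 3 of its group, where chance gives about 1 in 20. Among the members and their family, Id3 was low in KO 3 at 2.51 CPM, and in the same library Id1 held a high share of the ID counts per kilobase, 58.6%. Msx1 was low in KO 2 at 1.02 CPM and Id4 high there at 24.1 CPM. Rgma was high in WT 2 at 168 CPM.

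Summed marker levels set KO 4 apart for fetal Leydig cells at 1803 CPM, Sertoli cells at 98.2 CPM and erythroid cells at 21.4 CPM. Stromal and peritubular markers were high in WT 2 at 192 CPM and endothelial markers low in WT 4 at 86.5 CPM. The part of these in the member differences was not tested; the members' values without KO 4 stand beside the results.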

How the results depend on the processing

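Over 20 alternatives no member changed direction with a call, and Bmp4 and Id2 passed in none (Id2 fell to the filter of 1 CPM in 4 libraries, which gave no value). Tested against a fold change of 1.5, 3 members were higher, with 2430 of all genes higher and 3867 lower. In that test 4 intracellular regulators were higher, and 5 extracellular antagonists and modulators and 1 receptor were lower. All genes higher numbered 4033 with upper-quartile and 3952 with ribosomal protein gene scaling. The call on Bmp7 was lost in 7 alternatives, its log2 difference being 0.14, 0.18 and 0.20 with upper-quartile, ribosomal protein gene and total-count scaling (edgeR adjusted p = 0.366, 0.311 and 0.195). Smad1 lost its call with ribosomal protein gene scaling (0.41, adjusted p = 0.0616) and in the fold test, as did Bmpr1a and Bmpr2 in the fold test. Same-numbered libraries did not deviate together throughout (correlations 0.15, -0.21, -0.11 and 0.01 for numbers 1 to 4), so the numbers were not taken as pairs. The library names of KO 1 and WT 1 share a number that the labels do not explain. Leaving out 1 library gave 6 to 7 members higher (6 without KO 2 or WT 1) and 1 lower. Among all tested genes it gave 5353 to 6251 higher and 5928 to 7014 lower. With the replicate number as a block 6 members were higher and 1 lower, without the call on Bmp7 (0.37, adjusted p = 0.0642), and 5469 genes were higher and 6049 lower. The cause of these changes was not tested. Depth limits the size of the Id3 difference, with 33 counts in the WT-labelled libraries. For Id2 the ratio of summed counts, 1.58, had a counting interval of 1.16 to 2.18, and the spread between KO-labelled libraries was wide (CV 70.5%).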

Other observations

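Bmp5, Gdf5, Hfe2, Sost and Dlx5 had too few counts to be tested. In KO-labelled and WT-labelled libraries in all, Bmp5 had 16 and 14, Gdf5 9 and 57, Hfe2 22 and 19, Sost 17 and 37 and Dlx5 16 and 10 counts. In values picked out after they were seen, KO 3 had the lowest values of Tet1 at 75.8 CPM, Id3 at 2.51 CPM, Bmpr1a at 61.2 CPM, Smad1 at 16.8 CPM and Smad6 at 11.5 CPM, and the highest of Smad9 at 5.46 CPM among the KO-labelled libraries. It also had the smallest total, 13820764 counts, while Bmpr2 was lowest in KO 2 and Smad5 in KO 4.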
